A study of Mus musculus with 4 samples.

Results

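The mouse genes of the MHC class II pathway were described across the cell classes of a liver tumour digest. The 10 members, of 17813 genes in the deposited table, were taken by symbol: H2-Aa, H2-Ab1 and H2-Eb1, Cd74, H2-DMa, H2-DMb1 and H2-DMb2, H2-Oa and H2-Ob, and Ciita. All 10 were present. None of them was used to cluster the cells or stood among the naming markers, but the splitting of clusters and the naming thresholds were set after clusters had been viewed with their Cd74 and H2-Aa levels.

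MHC class II molecules are pairs of an alpha and a beta chain that carry peptides from the endosome to the cell surface, where CD4+ T cells read them. H2-Aa and H2-Ab1 encode the chains of I-A, and H2-Eb1 the beta chain of I-E. Cd74 encodes the invariant chain, which fills the groove and guides new molecules to the endosome. H2-DM (H2-DMa with H2-DMb1 or H2-DMb2) removes the invariant chain remnant and edits the peptides, and H2-O (H2-Oa with H2-Ob) inhibits H2-DM. Ciita encodes the transactivator that switches these genes on in dendritic cells, B cells and activated macrophages. In the liver the class II positive cells include dendritic cells, B cells, macrophages and, at lower levels, sinusoidal endothelium.

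Libraries came from 4 samples of liver tumour tissue of C57BL/6 mice aged 5 months, 2 of genotype Miz1F/F and 2 of genotype Miz1_delta_hep (written Miz1ΔHep in the protocol), in which Miz1 is deleted in hepatocytes. All 4 had received diethylnitrosamine (DEN, a liver carcinogen; 25 mg/kg intraperitoneally in week 2 of life) and then carbon tetrachloride (CCl4, a liver toxin; 0.5 ml/kg in corn oil by weekly intraperitoneal injection). The sources used here name neither the Cre driver nor the number of animals per sample. The table pools the cells under 4 barcode suffixes, called barcode sets 1 to 4, and no source used here pairs a set with a sample. No genotype was therefore compared, the sets are not replicates of a group, and no p-value was computed.

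The table held 24802 cells and 65920312 UMIs (unique molecular identifiers, each standing for 1 captured RNA molecule). The sets held 2574 to 11179 cells, with a median of 2648, 906, 1037 and 1859 UMIs per cell in sets 1 to 4. Cells fell into 21 classes named from marker genes, and 1562 cells (6.3%) stayed unnamed. B cell-like cells were the largest class with 6701 cells, and 1201 cells were hepatocyte-like. Barcodes that occurred under more than 1 suffix numbered 373 of 24427 and covered 748 cells, and none of 122 values moved beyond its spread when these cells were left out. In the erythroid-like class (273 cells), 6 B cell markers summed to 892 to 1493 CPM in the sets. They summed to 4292 to 7347 in B cell-like, 1047 to 2457 in plasma cell-like and 415 to 1635 in hepatocyte-like cells. Without the marker Ly6d the sums were 517 to 1156 in erythroid-like, 590 to 766 in plasma cell-like and 51.6 to 402 in hepatocyte-like cells. Cd74 stood at 3428 CPM in erythroid-like, 2773 in plasma cell-like, 962 in neutrophil-like and 702 in hepatocyte-like cells. Other erythroid-like values are not described further.

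In the GRCm38 annotation (GENCODE vM21), 8 members lie within chromosome 17, from H2-Oa (34092340 to 34095234, plus strand) to H2-Eb1 (34305867 to 34316674, plus strand). Between them, in order, lie H2-DMa (from 34119541), H2-DMb2 (34143307 to 34151555), H2-DMb1 (34153072 to 34160230), H2-Ob (34238903 to 34254414), H2-Ab1 (34257689 to 34269419) and H2-Aa (34282744 to 34287823, minus strand). Ciita lies on chromosome 16 (10480059 to 10528418, plus strand). Class II promoters are known for an X box, bound by the RFX complex, and a Y box, bound by NF-Y, at a set distance, and Ciita docks on this complex. The stretches below are shown because both the X box and the Y box letters were found in the promoter windows of 5 members. H2-DMb2 is shown as one that held the Y box letters alone. Its stretch precedes a RefSeq start but lies within the GENCODE gene, downstream of the GENCODE start.

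H2-Aa: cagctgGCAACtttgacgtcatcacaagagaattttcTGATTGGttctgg
H2-Eb1: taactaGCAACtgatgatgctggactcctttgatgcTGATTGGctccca
H2-Ob: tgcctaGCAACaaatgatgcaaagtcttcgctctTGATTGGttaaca
H2-DMb2: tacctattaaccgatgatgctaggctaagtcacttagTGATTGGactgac

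Capitals mark the letters TGATTGG (the Y box) and GNAAC (a part of the X box). The stretches are from RefSeq, build GRCm38.p6, and each runs 5′ to 3′ on the strand of its gene. They lie at chr17:34287861-34287910 on the minus strand (H2-Aa), and on the plus strand at chr17:34305770-34305818 (H2-Eb1), chr17:34238812-34238858 (H2-Ob) and chr17:34145120-34145169 (H2-DMb2). TGATTGG ended 43, 54, 52 and 85 bases before the RefSeq start in the same order. The gap between GNAAC and TGATTGG was 26, 25 and 23 bases in H2-Aa, H2-Eb1 and H2-Ob.

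Promoter windows, from 250 bases before to 50 bases after the start, were at hand for 7 members, with 8 windows. TGATTGG, searched on both strands, was found in the windows of 6 members, against 7.82% of 32851 windows of all genes. GNAAC followed by TGATTGG after 20 to 30 bases on the same strand, again searched on both strands, was found in 5 members (H2-Aa, H2-Eb1, H2-DMb1, H2-Oa and H2-Ob), against 0.323% of all windows. H2-DMb1 and H2-Oa held the pair with a gap of 26 bases in both, in stretches that overlap an annotated untranslated region and are not printed. The H2-DMb1 and H2-DMb2 stretches were identical at 44 of 50 bases, but H2-DMb2 lacked GNAAC at the matching place. H2-DMa held neither motif in its windows, which lie downstream of the GENCODE start of the gene. These letters were chosen after the sequences had been seen, and a match is a description of letters, not of a bound site. H2-Ab1, Cd74 and Ciita had no window.

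Levels below are in CPM, the UMIs of a gene per 1000000 UMIs of a cell, averaged over the cells of a class in each barcode set with at least 20 of them. The class level is the median over sets. The libraries count the 3' end of each transcript, so levels are not divided by gene length, and levels of different genes are set side by side only as UMIs.

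The antigen-presenting chains were highest in conventional dendritic cells. H2-Aa in cDC2-like cells, the conventional dendritic cells that mainly prime CD4+ T cells, stood at 15388, 10656, 7675 and 9637 CPM in sets 1 to 4, with a class level of 10146. In cDC1-like cells, the cross-presenting type, it stood at 13528, 8661, 7841 and 8040 CPM. The sets of these types overlapped throughout. Mature DC-like cells, which carry the migration receptor gene Ccr7, had 6036, 7547 and 6697 CPM in sets 2 to 4, below every cDC1-like set. Tumour macrophage-like cells, named from Trem2, Gpnmb and Spp1 among other genes, had 4451, 5203, 6657 and 8132 CPM. B cell-like cells had 7591, 3980, 3918 and 4924 CPM, which overlapped the macrophage range.

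A lower tier of H2-Aa began with classical monocyte-like cells, whose sets ran from 422 CPM in set 1 to 3526 in set 4. Their highest set lay below the lowest B cell-like set. Plasmacytoid DC-like cells, the interferon-producing dendritic type, had 2114 to 2873 CPM, and Kupffer cell-like cells, the resident liver macrophages, 1322 to 2634. These classes overlapped in their sets. Non-classical monocyte-like cells had 1019 and 999 CPM in sets 2 and 4. Plasma cell-like cells, the antibody-secreting descendants of B cells, stood at 320 CPM (96 to 529), close to hepatocyte-like cells at 310 (293 to 711).

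The beta chain genes H2-Ab1 and H2-Eb1 followed nearly the same order as H2-Aa. H2-Ab1 had class levels of 9799 CPM in cDC2-like, 8934 in cDC1-like, 5202 in tumour macrophage-like, 3749 in mature DC-like and 3515 in B cell-like cells. H2-Eb1 had 8653 in cDC2-like, 6742 in mature DC-like, 6655 in cDC1-like, 4845 in tumour macrophage-like and 3034 in B cell-like cells. Mature DC-like cells thus ranked higher for H2-Eb1 than for H2-Ab1, and their sets ran from 3990 to 7265 CPM for the former and from 1882 to 4256 for the latter. Across the 21 classes, log2 levels of H2-Aa correlated with those of H2-Ab1 and H2-Eb1 at Pearson r = 0.99 each. This is a description over classes that share libraries, depth and free RNA.

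Cd74, the most abundant member by UMIs with 451977, stood at 36494, 16450, 14114 and 32541 CPM in cDC2-like cells of sets 1 to 4. B cell-like cells had 26776, 8584, 9187 and 20260 CPM, and tumour macrophage-like cells 12300, 9354, 12006 and 26902. In both dendritic and B cell-like cells, sets 2 and 3 were the low ones, and the ranges of the classes over sets overlapped. Within every set, cDC2-like cells had more Cd74 than B cell-like and tumour macrophage-like cells. Plasma cell-like cells had 3432, 2029, 2114 and 5304 CPM of Cd74, where hepatocyte-like cells had 702 (398 to 2289). The plasma cell-like level was thus above the hepatocyte-like level in every set for Cd74, while for H2-Aa it was below it in sets 1, 2 and 4.

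**Figure D1:**
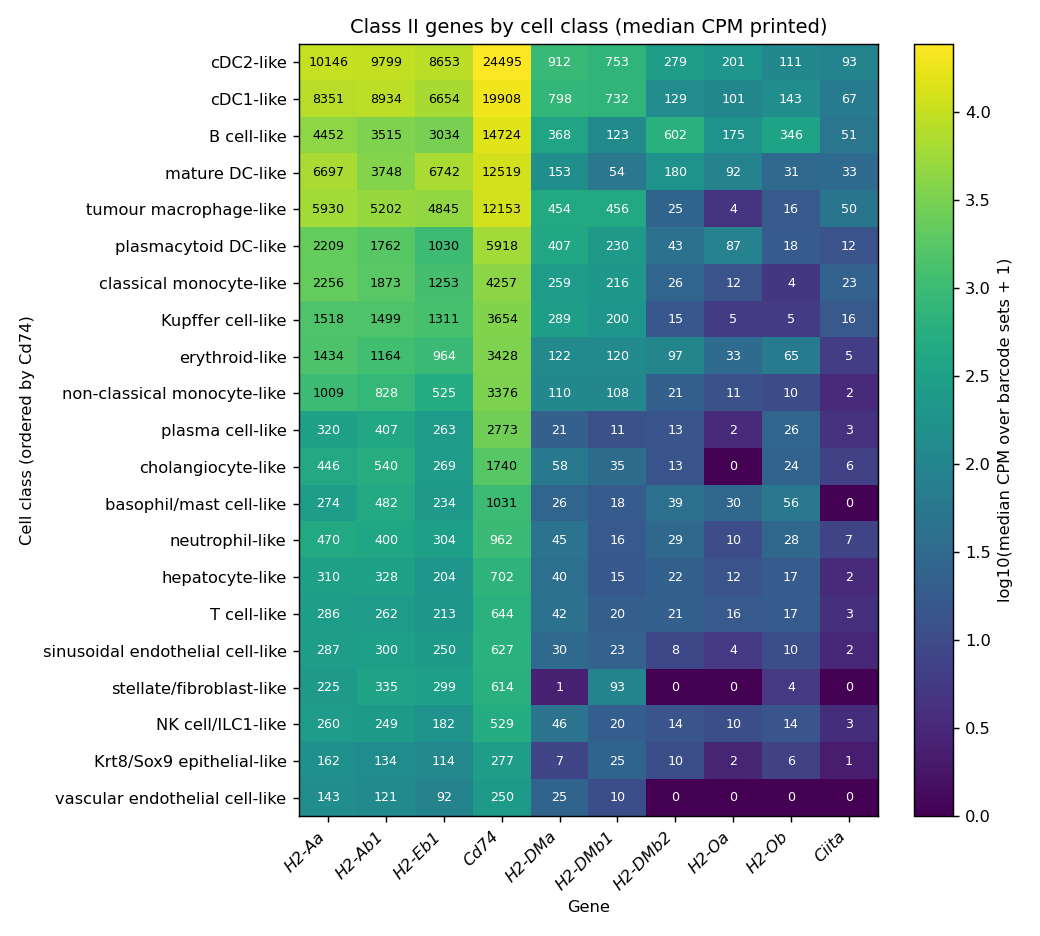
Level of each MHC class II gene in 21 cell classes, as the median over barcode sets in CPM, printed in each cell and coloured by log10(CPM + 1). Classes are ordered by Cd74. Conventional dendritic, mature DC-like, B cell-like and tumour macrophage-like cells take the first 5 places for Cd74, H2-Aa, H2-Ab1 and H2-Eb1, while H2-DMb2 and H2-Ob are highest in B cell-like cells.

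Among the peptide editors, H2-DMa and H2-DMb1 were highest in conventional dendritic cells and H2-DMb2 in B cells. H2-DMb1 stood at 1252, 596, 560 and 911 CPM in cDC2-like cells and at 144, 102, 126 and 120 in B cell-like cells of sets 1 to 4. H2-DMb2 went the other way, with 343, 218, 152 and 339 CPM in cDC2-like and 1172, 445, 449 and 754 in B cell-like cells. For neither gene did the 2 classes overlap. H2-DMa, the alpha chain that both beta chains pair with, stood at 912 CPM in cDC2-like, 798 in cDC1-like, 454 in tumour macrophage-like, 407 in plasmacytoid DC-like and 368 in B cell-like cells. H2-DMb1 and H2-DMb2 are near-identical neighbours, so the assignment of their UMIs is uncertain where reads match both.

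**Figure D2:**
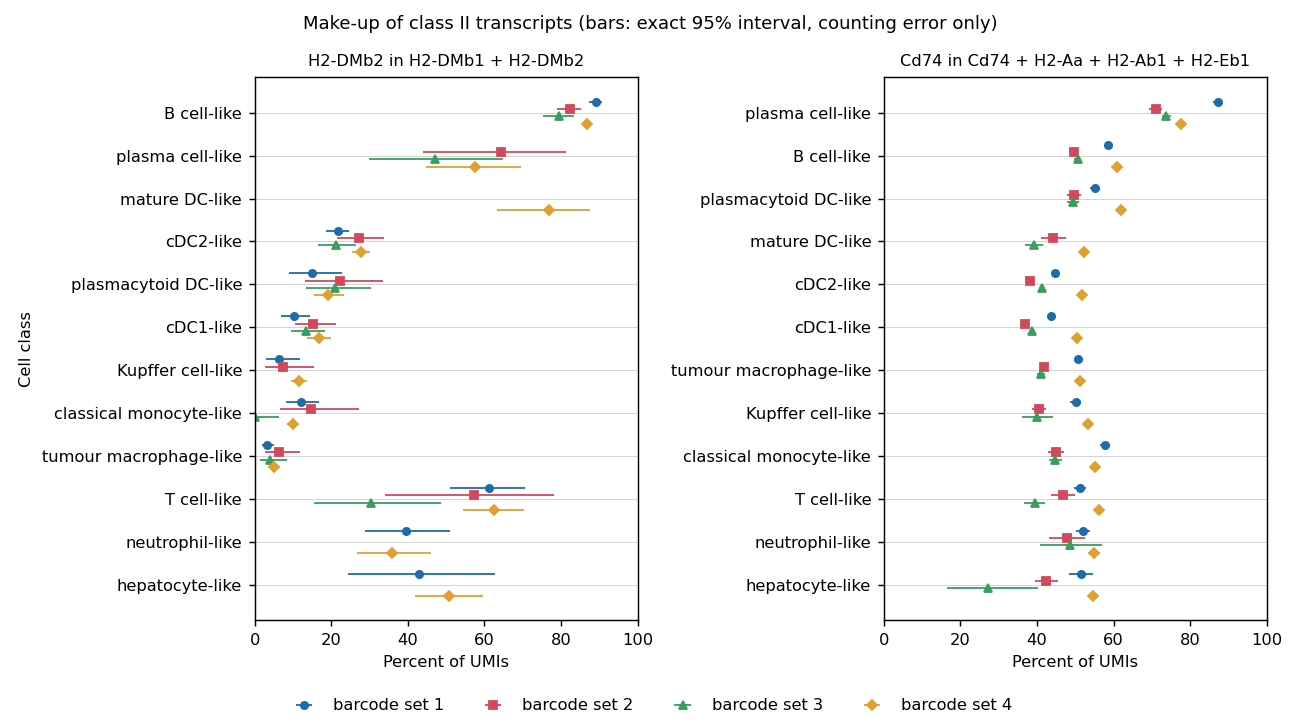
Left, the percentage of H2-DMb1 and H2-DMb2 UMIs that were H2-DMb2, and right, the percentage of Cd74, H2-Aa, H2-Ab1 and H2-Eb1 UMIs that were Cd74, by cell class. Points are barcode sets and bars are exact 95% intervals for counting error. B cell-like cells lie at 79.5% to 89.0% on the left and tumour macrophage-like cells at 3.13% to 6.25%, and plasma cell-like cells lie at 71.0% to 87.2% on the right.

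The H2-DM beta chain that was counted differed between the classes. Of H2-DMb1 and H2-DMb2 UMIs together, H2-DMb2 made up 86.4% in B cell-like cells (exact Clopper-Pearson 95% interval 85.5% to 87.2%), with 89.0%, 82.2%, 79.5% and 86.8% in sets 1 to 4. It made up 25.2% in cDC2-like cells (sets 21.1% to 27.7%), 14.4% in cDC1-like cells (10.2% to 16.7%) and 4.47% in tumour macrophage-like cells (3.13% to 6.25%). The ranges over sets of these 4 classes did not overlap. Kupffer cell-like and classical monocyte-like cells lay at 10.5% and 10.1%, and plasmacytoid DC-like cells at 19.1%. Mature DC-like cells lay at 71.3% (61.0% to 80.1%, 94 UMIs), far from cDC1-like and cDC2-like cells. Hepatocyte-like and T cell-like cells, which are not known to make H2-DM, lay at 90 of 180 UMIs and at 58.3%. Such intervals cover counting error only.

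H2-O was counted in fewer classes than H2-DM at levels above those of hepatocyte-like cells. H2-Ob, the beta chain, stood at 566, 330, 317 and 363 CPM in B cell-like cells of sets 1 to 4, with no overlap with any other class described. In cDC1-like cells it stood at 166, 160, 127 and 94.9 CPM and in cDC2-like cells at 117, 138, 105 and 92.7. H2-Oa, the alpha chain, was as high in cDC2-like cells (334, 162, 144 and 240 CPM) as in B cell-like cells (353, 98.1, 123 and 228), with overlapping sets. In plasmacytoid DC-like cells H2-Oa stood at 87.2 CPM and H2-Ob at 17.6, the latter near the 17.0 of hepatocyte-like cells. Tumour macrophage-like and Kupffer cell-like cells had 3.77 and 5.10 CPM of H2-Oa, below the 12.3 of hepatocyte-like cells.

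As a share of UMIs, H2-Ob made up 63.4% of H2-O in B cell-like, 47.5% in cDC1-like, 30.7% in cDC2-like and 16.7% in plasmacytoid DC-like cells. The inhibitor made up 31.3% of all H2-O and H2-DM UMIs in B cell-like cells and 15.1%, 13.5% and 13.2% in plasmacytoid DC-like, cDC2-like and cDC1-like cells. In tumour macrophage-like and classical monocyte-like cells it made up 1.88% and 2.88%. Over the 21 classes, H2-DMb2 correlated with H2-Oa at r = 0.93 and with H2-Ob at r = 0.89, above its r = 0.51 with H2-DMb1. These values again describe classes that share libraries, depth and free RNA.

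Ciita was counted sparsely, with 1293 UMIs in all cells. Its class levels were 92.9 CPM in cDC2-like cells (88.4, 9.63, 98.1 and 97.4 in sets 1 to 4), 66.9 in cDC1-like cells (49.4 to 102), 51.0 in B cell-like cells (42.1 to 65.4) and 50.02 in tumour macrophage-like cells (19.7 to 67.7). These ranges overlapped, so no order among the 4 classes is read from them. Classical monocyte-like, Kupffer cell-like and plasmacytoid DC-like cells stood at 23.0, 15.8 and 12.0 CPM, and hepatocyte-like cells at 2.48. Vascular endothelial-like cells held 0 Ciita UMIs.

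To compare cells at equal depth, each cell with at least 500 UMIs was thinned to 500. Any of Cd74, H2-Aa, H2-Ab1 and H2-Eb1 was then seen in 99.7% of B cell-like cells (99.8% before thinning), 98.9% of cDC1-like (99.4%), 96.4% of cDC2-like (98.2%) and 95.7% of mature DC-like cells (100% before thinning). Tumour macrophage-like cells followed at 89.6% and plasmacytoid DC-like cells at 86.9%, then Kupffer cell-like cells at 82.7% and plasma cell-like cells at 77.3% (98.8% before). Classical monocyte-like cells stood at 65.9%. Classes not known for class II also held such UMIs: 36.1% of hepatocyte-like cells (33.2% to 39.0%, 68.5% before), 26.9% of T cell-like cells (25.1% to 28.7%, 49.1% before) and 19.4% of Krt8/Sox9 epithelial-like cells. Median depths before thinning were 1165 UMIs in B cell-like, 1552 in hepatocyte-like and 1223 in T cell-like cells. Sinusoidal endothelial-like cells lay among these classes, at 31.1%, and the source of such UMIs was not tested. Thinning left out 894 B cell-like, 92 hepatocyte-like and 103 T cell-like cells.

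In the same thinned cells, H2-Ob was seen in 16.3% of B cell-like cells (32.9% before thinning), 7.16% of cDC1-like and 6.19% of cDC2-like cells, against 1.08% of hepatocyte-like cells. H2-DMb2 was seen in 27.4% of B cell-like and 10.5% of cDC2-like cells, against 1.62% of hepatocyte-like cells. Ciita was seen in 2.79% of cDC2-like (interval 1.66% to 4.37%) and 2.26% of B cell-like cells (1.89% to 2.67%), against 0.361% of hepatocyte-like cells (0.0984% to 0.921%).

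Per cell, the 4 genes Cd74, H2-Aa, H2-Ab1 and H2-Eb1 took a median of 5.01% of all UMIs in cDC2-like cells, 3.85% in cDC1-like, 3.11% in tumour macrophage-like, 2.70% in mature DC-like and 2.59% in B cell-like cells. Plasmacytoid DC-like cells had 0.971%, Kupffer cell-like cells 0.459%, plasma cell-like cells 0.30% and hepatocyte-like cells 0.0451%. In classical monocyte-like cells the 25th, 50th and 75th percentiles were 0.0643%, 0.370% and 2.44%. Of the 849534 UMIs of these 4 genes in the table, B cell-like cells held 29.8%, cDC2-like cells 15.9%, tumour macrophage-like cells 13.7%, classical monocyte-like cells 9.02% and cDC1-like cells 7.07%. B cell-like cells held 72.0% of all H2-DMb2 and 70.8% of all H2-Ob UMIs, but 9.24% of H2-DMb1.

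Class pairs were compared within each barcode set as log2 ratios of levels plus 10 CPM, tested where the mean level reached 20 CPM. A gene was called where it was at least 2-fold higher, or at least 2-fold lower, in every set that held 20 cells of both classes. The share of all tested genes so called is given beside the counts of members and of listed genes, and 10 pairs were compared.

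Among the dendritic classes, cDC1-like and cDC2-like cells had nearly equal class II levels. None of the 10 members was called, against 1.09% of 4418 genes higher and 2.47% lower. The median log2 ratio of the members was -0.20 (sets -0.30 to -0.03), beside -0.05 for all genes. H2-DMb2 had the lowest value, at -0.90 (-1.16 to -0.36), and H2-Ob was the only member above 0 in all 4 sets, at 0.22 (0.03 to 0.47). Ciita ranged from -0.59 to 1.60, and its highest value came from set 2, where cDC2-like cells had 9.63 CPM. Set 3 was the only set with H2-Aa, H2-Ab1 and H2-Eb1 above 0. There, 42 of 221 cDC2-like cells lay in a cluster with 1861 CPM of H2-Aa, against 8957 in the largest cDC2-like cluster. The part of that cluster in the ratios was not tested.

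Mature DC-like cells had less of the peptide-loading genes than cDC2-like cells. H2-DMa stood at 0, 153 and 216 CPM in sets 2 to 4, against 606, 703 and 1153, a log2 ratio of -2.36 (-5.95 to -2.13). H2-DMb1 stood at 86.5, 44.8 and 54.1 CPM, a log2 ratio of -3.38 (-3.84 to -2.65), and H2-Ob at 21.1, 32.0 and 31.1, a ratio of -1.45 (-2.25 to -1.32). In these 3 genes every mature DC-like set lay below every cDC2-like set. These were the 3 of 10 members called lower, against 7.39% of 4560 genes, and no member was called higher, against 6.32%. Of the 10 members, 9 were lower in every set. H2-DMb2 was at -0.27 (-0.56 to -0.10), and H2-Eb1, the exception, at -0.42 (-1.06 to 0.21). The member median was -0.997, beside -0.16 for all genes. Only 22, 25 and 39 mature DC-like cells stand behind sets 2 to 4, and without set 3 the called members number 5, with H2-Ab1 and H2-Oa added.

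Plasmacytoid DC-like cells stood below cDC2-like cells in 8 of 10 members called lower, against 4.82% of 5016 genes, with none called higher, against 7.1%. H2-Eb1 had the lowest ratio at -3.08 (sets -3.36 to -2.84), with 1224, 801, 873 and 1188 CPM in sets 1 to 4. H2-Aa lay at -2.19, Cd74 at -1.91 and H2-DMa at -1.14. H2-Oa (-0.94) and Ciita (-1.57, sets -2.30 to -0.76) were not called. The member median was -1.98, beside 0.28 for all genes. H2-Eb1 made up 20.1% of H2-Aa, H2-Ab1 and H2-Eb1 UMIs here (19.0% to 20.5% in the sets), against 29.2% in cDC2-like, 27.5% in B cell-like and 34.6% in mature DC-like cells. B cell markers other than Ly6d, which plasmacytoid DC-like cells also held, summed to 51.0 to 154 CPM in this class.

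Compared with B cell-like cells, cDC2-like cells had more of the presenting chains, Cd74, H2-DMa and H2-DMb1 in every set, and less H2-Ob and H2-DMb2. H2-Ab1 was at 1.39 (sets 1.34 to 1.64), H2-Eb1 at 1.34 (1.29 to 1.96) and H2-DMb1 at 2.63 (2.07 to 3.04). These were the 3 of 10 members called higher, against 8.59% of 4679 genes. H2-Ob, at -1.68 (-2.18 to -1.20), was the 1 member called lower, against 4.66% of genes, and with cells of at least 500 genes no member was called lower. H2-DMb2 was at -1.32 and missed the call in set 2, where it lay at -0.995. Without set 2 the members called lower number 2, with H2-DMb2 added. H2-Aa was at 0.99 (0.97 to 1.42), H2-DMa at 1.31 (0.94 to 1.43) and Cd74 at 0.65 (0.45 to 0.94), above 0 in every set but not called. H2-Oa was at 0.14 (-0.08 to 0.67). In all, 6 members were higher and 2 lower in every set. The member median was 0.87, beside -0.01 for all genes.

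All 10 members were called lower in plasma cell-like than in B cell-like cells, against 19.5% of 3980 genes, and none was called higher, against 2.89%. The member median was -3.03 (sets -4.67 to -2.96), beside -0.75 for all genes. On this scale Cd74 had the smallest decrease, at -2.09 (-2.96 to -1.93), and H2-DMb2 the largest, at -4.38 (-5.97 to -3.05). The 10 CPM added to each level shrinks the ratios of members near or under it. H2-Oa, at -3.63, went from 175 to 2.43 CPM and H2-DMb2 from 602 to 13.5, so no order between these genes is read. H2-Oa stood at 2.43 CPM and H2-DMb2 at 13.5 CPM in plasma cell-like cells, at or under their hepatocyte-like levels. Cd74 made up 77.3% of the UMIs of the 4 most abundant members in plasma cell-like cells (87.2%, 71.0%, 73.8% and 77.6% in sets 1 to 4), against 59.1% in B cell-like cells (58.5%, 49.6%, 50.6% and 61.0%). In each set the plasma cell-like share was the higher. B cell markers summed to 1047 to 2457 CPM in the plasma cell-like sets, and to 590 to 766 CPM without Ly6d, and their part in the result was not tested.

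The Cd74 share also moved with the barcode set. Of the 14 classes with a value in all 4 sets, all 14 had their lowest share in set 2 or set 3, and the highest share was in set 4 in 10 classes and in set 1 in 4. In cDC2-like cells it was 44.7%, 38.2%, 41.2% and 51.8% in sets 1 to 4. Sets 2 and 3 were also the shallowest, with medians of 906 and 1037 UMIs per cell, and the part of depth in this was not tested.

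**Figure D3:**
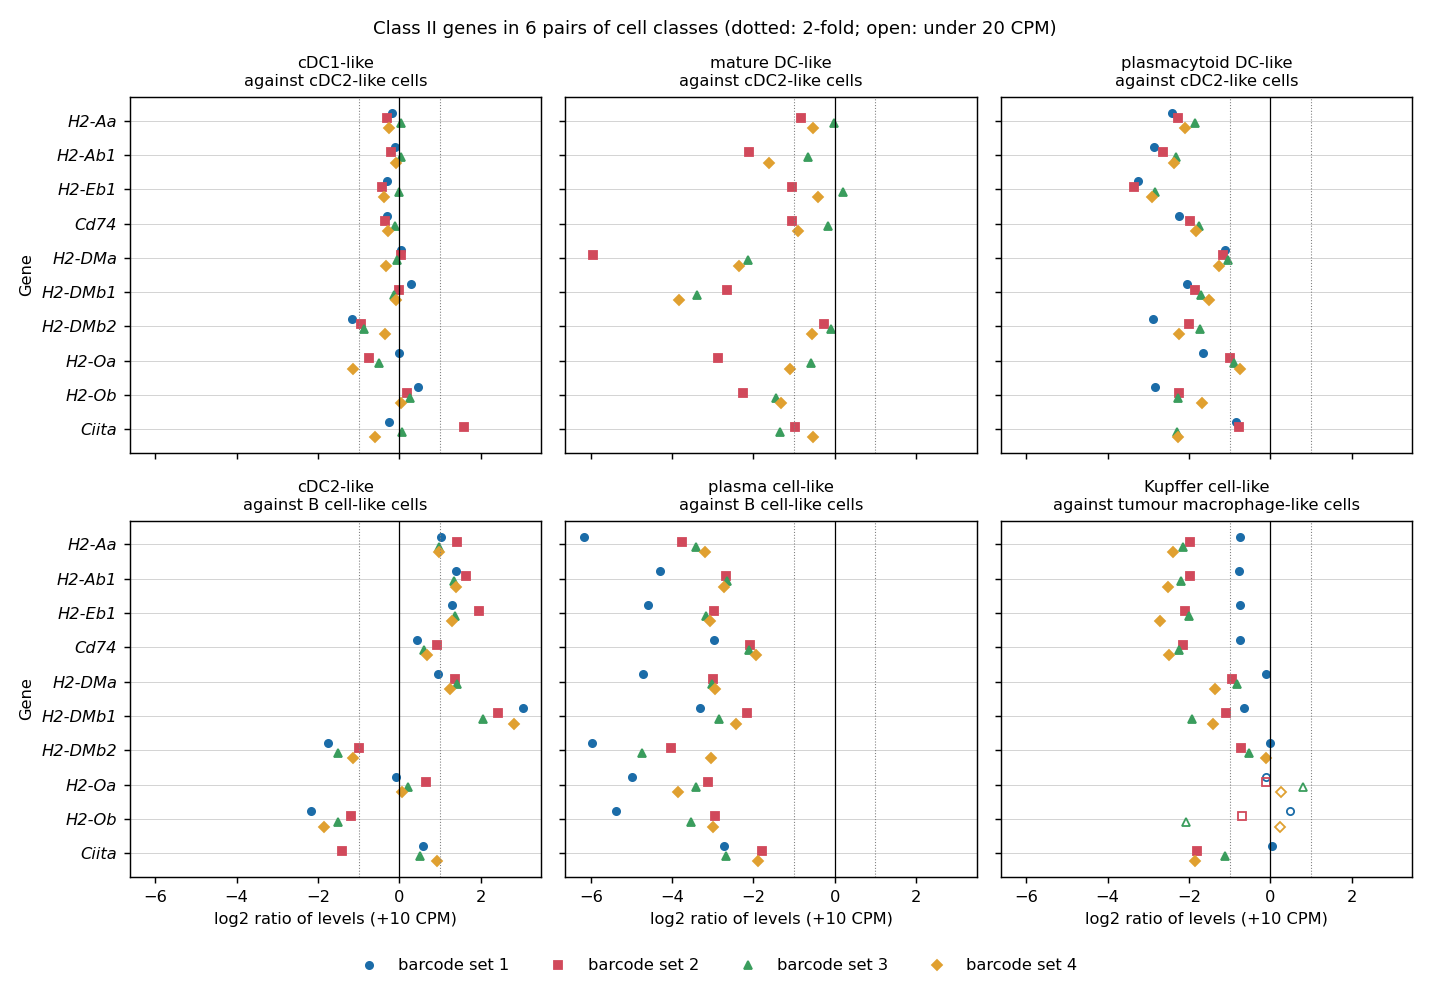
Log2 ratio of levels plus 10 CPM for each member in 6 pairs of cell classes, with 1 point per barcode set, dotted lines at 2-fold and open points for members under 20 CPM. All plasma cell-like points lie beyond 2-fold below B cell-like cells, H2-DMb1 and H2-DMb2 lie on opposite sides of 0 in cDC2-like against B cell-like cells, and in Kupffer cell-like against tumour macrophage-like cells set 1 lies nearer to 0 than the others for the presenting chains.

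Macrophage classes differed in class II, with 1 barcode set apart. Kupffer cell-like cells had 2634, 1322, 1494 and 1542 CPM of H2-Aa in sets 1 to 4, against 4451, 5203, 6657 and 8132 in tumour macrophage-like cells. The log2 ratios were -0.76 in set 1 and -1.97, -2.15 and -2.39 in sets 2 to 4. Cd74 followed, at -0.75 in set 1 and -2.48 to -2.15 in the others. Of 8 members tested, 7 were lower in every set, but none was called in either direction, against 1.98% of 5367 genes higher and 0.932% lower. The member median was -1.92 (-2.13 to -0.70), beside 0.16 for all genes. Without set 1, 6 members were called lower: Cd74, H2-Aa, H2-Ab1, H2-Eb1, H2-DMb1 and Ciita. H2-DMb2 lay at -0.32 (-0.72 to -0.01), from 14.69 against 24.69 CPM, near the 22.1 of hepatocyte-like cells. The clusters behind the classes differed between sets. In set 1, 70 of 167 Kupffer cell-like cells lay in the smaller Kupffer cell-like cluster described below, with the higher H2-Aa, against 37 of 389 in set 2. Most cells of that smaller cluster lay in set 4, where the H2-Aa ratio was the lowest at -2.39. Also in set 1, 61 of 169 tumour macrophage-like cells lay in a cluster with 2397 CPM of H2-Aa and 6726 CPM of summed monocyte markers there. The other 108 had 5612 CPM of H2-Aa and 290.1 CPM of the monocyte markers. The part of these clusters in the ratios was not tested.

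Kupffer cell-like and classical monocyte-like cells went in opposite directions in different sets. H2-Aa lay at 2.61 in set 1 and at -0.84, -0.51 and -1.19 in sets 2 to 4. Monocyte-like cells had 422 CPM in set 1 and 2377, 2136 and 3526 in sets 2 to 4. Of 7 members tested none was called, against 6.31% of 5274 genes higher and 3.62% lower, and the member median was -0.64 (-1.17 to 2.13), beside 0.18 for all genes.

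**Figure D4:**
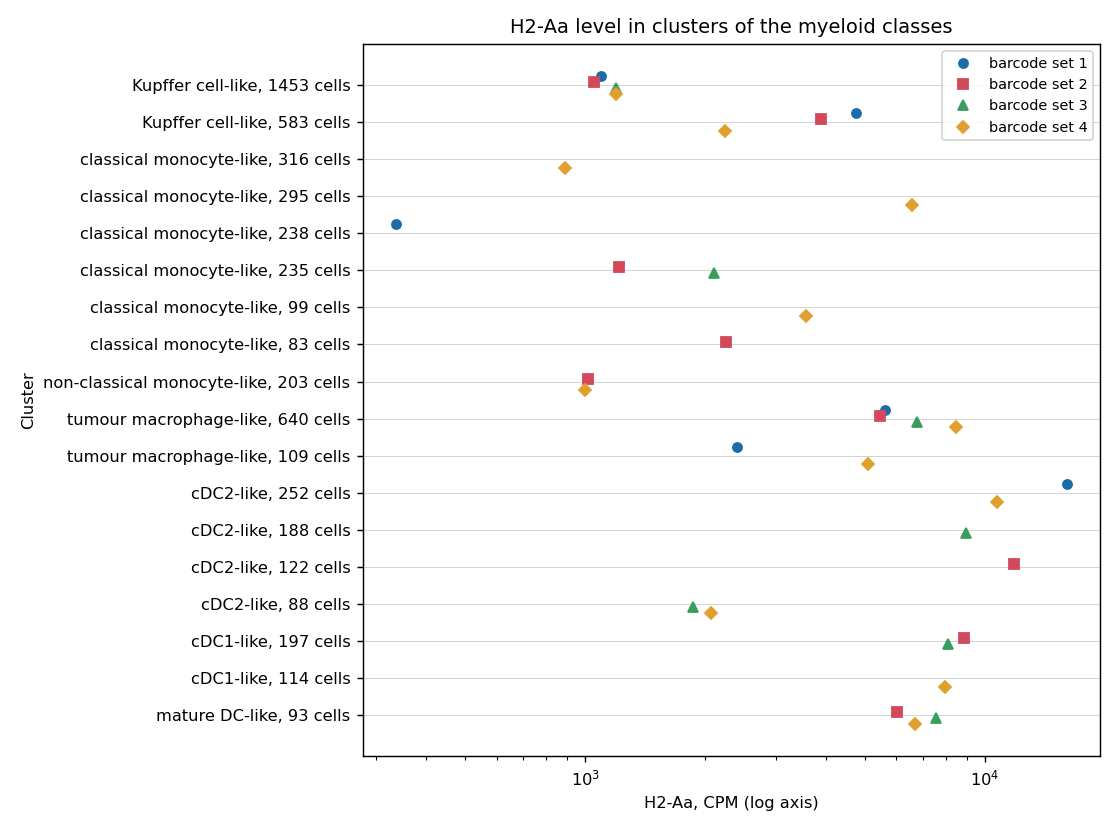
H2-Aa level in CPM, on a log axis, in 18 clusters of the myeloid classes, with 1 point per barcode set of at least 20 cells. The Kupffer cell-like clusters lie at 1052 to 1198 and 2235 to 4769 CPM, and the classical monocyte-like clusters are spread over more than 10-fold.

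Within these classes, clusters that were split without the members differed in class II. The larger Kupffer cell-like cluster (1453 cells) had 1093, 1052, 1198 and 1195 CPM of H2-Aa in sets 1 to 4, and the smaller one (583 cells) had 4769, 3893 and 2235 in sets 1, 2 and 4. Every value of the smaller cluster lay above every value of the larger. Median depth was 1613 UMIs per cell in the larger and 927 in the smaller cluster. The summed Kupffer cell markers of the smaller cluster were 9145 CPM in set 1 and 5607 in set 2, below the 12688 and 11045 of the larger, and 9808 in set 4, above its 8667. The smaller cluster had the higher summed tumour macrophage markers (1450 against 808 CPM) and the lower summed cDC2 markers (331 against 730 CPM). Its B cell markers summed to 84.8 CPM in set 1 and 149 in set 2, below the 100.1 and 185 of the larger cluster, and to 770 in set 4, above its 415. Without Ly6d they stood at 48.7 against 72.7 CPM in set 1, the set with the largest H2-Aa gap.

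Most classical monocyte-like clusters lay largely in 1 barcode set. A cluster of 238 cells, 224 of them in set 1, had 369 CPM of H2-Aa and 15829 CPM of summed monocyte markers (Ly6c2, Ccr2, Chil3, Vcan, F13a1 and Hp). A cluster of 295 cells, 275 of them in set 4, had 6390 CPM of H2-Aa and 2248 CPM of the markers. A further cluster of 316 cells, 309 of them in set 4, had 910 CPM of H2-Aa and 5144 CPM of the markers. Within set 4, clusters of 275, 309 and 76 cells had 6557, 892 and 3571 CPM of H2-Aa. Among cDC2-like clusters, 1 of 88 cells had 2092 CPM of H2-Aa, against 9083 to 12112 in the other 3. Its monocyte markers summed to 2033 CPM, against 423 to 535 in those.

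Non-classical monocyte-like cells, which patrol vessels, stood below classical monocyte-like cells in sets 2 and 4, the only sets with 20 cells of both. H2-Aa was at 1019 and 999 CPM against 2377 and 3526, a log2 ratio of -1.51 (-1.81 to -1.21). Of 7 members tested, 6 were called lower, against 2.1% of 4846 genes, and none higher, against 2.31%. H2-DMb2, at -0.65, was the member not called. The member median was -1.51, beside 0.04 for all genes. Fewer members were called under other clusterings, as given in the closing section.

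Sinusoidal endothelial-like cells had 287 CPM of H2-Aa and 627 CPM of Cd74, beside 310 and 702 in hepatocyte-like cells. None of 5 members tested was called between these classes, against 22% of 5928 genes higher and 8.94% lower, and the member median was -0.37 (-0.89 to 0.47), beside 0.73 for all genes. The sign of this median depends on the setting, at 0.21 with Leiden resolution 0.5 and 1.06 with cells weighted by UMIs. Among the sinusoidal clusters, those of 36 and 93 cells had 1620 and 1493 CPM of H2-Aa. B cell markers summed to 415, 889, 901 and 1635 CPM in hepatocyte-like cells of sets 1 to 4, and to 166, 159, 51.6 and 402 without Ly6d, and their part in the hepatocyte-like levels was not tested. Vascular endothelial-like cells had less, with 143 CPM of H2-Aa and 250 CPM of Cd74. Against them, Cd74, H2-Aa, H2-Ab1 and H2-Eb1 were higher in sinusoidal cells in each of sets 2 to 4, with a member median of 0.73 (0.73 to 1.51), beside -0.03 for all genes. No member was called in this pair, against 0.367% of 6536 genes higher and 1.04% lower. Under 5 alternatives members were called higher: 4 at resolution 0.5, 4 at 2.0, 5 with the members in the clustering, 2 with UMI weights and 3 with the lowest class level subtracted, with medians of 1.24 to 2.03.

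Few genes of the promoter complex were called in any pair. The list holds Rfx5, Rfxap and Rfxank of the RFX complex, Creb1, and Nfya, Nfyb and Nfyc of NF-Y, and their highest class levels ran from 16.3 CPM (Rfxank) to 76.7 (Creb1, in cDC2-like cells). Creb1 stood at 56.5 CPM in B cell-like, 13.8 in plasma cell-like and 10.9 in hepatocyte-like cells. It was called lower in plasma cell-like than in B cell-like cells, the 1 of 1 gene of the list tested there, against 19.5% of all genes. It was also called higher in sinusoidal endothelial-like than in hepatocyte-like cells, 1 of 2, against 22% of all genes. In the other 8 pairs no gene of the list was called. Rfx5 stood at 11.4 CPM in cDC2-like and 7.90 in B cell-like cells, from 21 and 54 UMIs, so differences in it were not detectable at this depth.

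Genes of processing and turnover had peaks of their own. Ctss, the cathepsin that trims the invariant chain in dendritic and B cells, was highest in tumour macrophage-like cells, at 3269 CPM, with 1363 in cDC2-like, 538 in cDC1-like and 413 in B cell-like cells. Cst3, the cathepsin inhibitor cystatin C, peaked at 14083 CPM in cDC1-like cells, against 3806 in cDC2-like cells. In that pair Cst3 was called higher and Ctss lower, of 6 genes tested, against 1.09% and 2.47% of all genes. Lgmn, an asparagine endopeptidase, peaked at 3345 CPM in Kupffer cell-like cells. Ctsl, another cathepsin, stood at 1061 CPM in plasmacytoid DC-like and 48.3 in cDC2-like cells, and was called higher in the former, while Cst3 and Cd83 were called lower, of 6 tested, against 7.1% and 4.82% of all genes. Ctss and Cst3 were called higher in cDC2-like than in B cell-like cells, 2 of 6, against 8.59%. March1, a ubiquitin ligase that removes class II from the surface, and Cd83, which opposes it, were called lower in plasma cell-like than in B cell-like cells, 2 of 6, against 19.5% of all genes, with Cd83 at 38.9 against 341 CPM. Ctsl, Lgmn and March8 were called higher in Kupffer cell-like than in classical monocyte-like cells, 3 of 7, against 6.31%.

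Costimulatory genes were low where class II was low in plasmacytoid DC-like and plasma cell-like cells. Cd86 stood at 138 CPM in cDC2-like and 140.4 in B cell-like cells, against 9.22 in plasmacytoid DC-like and 7.37 in plasma cell-like cells. Cd40 stood at 122 and 49.7 CPM in the former and 1.81 and 1.68 in the latter. Both genes, the 2 of 2 tested, were called lower in plasmacytoid DC-like than in cDC2-like (4.82% of all genes) and in plasma cell-like than in B cell-like cells (19.5%). In mature DC-like cells Cd40 stood at 246 CPM and was called higher than in cDC2-like cells, 1 of 3 tested, against 6.32% of all genes.

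In mature DC-like cells, where H2-DMa and H2-DMb1 were called lower than in cDC2-like cells, some neighbouring genes of the class II region and some interferon-gamma response genes were called higher. H2-Eb2, another class II beta chain gene, stood at 124 CPM (30 UMIs) in mature DC-like, 34.6 in B cell-like and 7.84 in cDC2-like cells. Psmb9, an immunoproteasome subunit, stood at 424 against 144 CPM. These 2 of 6 neighbours were called higher, against 6.32% of all genes, with a list median of 1.58 (0.77 to 1.66). Of 11 interferon-gamma response genes, 5 were called higher, Gbp2 and Cd274 among them, and none lower, against the same 6.32% and 7.39%, with a median of 1.002 (0.78 to 2.42). Gbp2, an interferon-induced GTPase, stood at 283 against 34.9 CPM. Elsewhere the lists held further calls. Cxcl9 and Cxcl10, chemokine genes, were called lower in plasmacytoid DC-like than in cDC2-like cells, 2 of 5 against 4.82%. In cDC2-like against B cell-like cells Psmb8 (1 of 6) and Cxcl10 (1 of 7) were called higher, against 8.59%. Cxcl10 was called higher in plasma cell-like than in B cell-like cells, 1 of 4 against 2.89%. It was called lower in non-classical than in classical monocyte-like cells, 1 of 9 against 2.1%. Iigp1 was called higher in Kupffer cell-like than in tumour macrophage-like cells, 1 of 9 against 1.98%. Cxcl9 was called higher in sinusoidal than in vascular endothelial-like cells, 1 of 11 against 0.367%. Of the interferon-gamma genes 5 of 9, Cxcl9 and Cxcl10 among them, were called higher in sinusoidal endothelial-like than in hepatocyte-like cells. Of the neighbours 1 of 5, Tap2, was called higher there. In that pair 22% of all genes were so called and no class II member was. Called genes outside the naming rule were picked out after their values had been seen.

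Across the 21 classes, 10971 genes were ranked by the Pearson correlation of their log2 level with the mean of Cd74, H2-Aa, H2-Ab1 and H2-Eb1, which are part of that profile. Of the other members, Ciita ranked 5th (r = 0.94), H2-DMa 6th (0.91), H2-DMb1 11th (0.86), H2-DMb2 18th (0.78), H2-Oa 34th (0.74) and H2-Ob 137th (0.60). The 8 most alike genes other than the members were Fgd2 (0.88), Cd86 (0.88), Cd83 (0.87), Pkib (0.86), Irf5 (0.84), Ctss (0.80), Rel (0.80) and Rassf4 (0.80). Of these, Cd86, Cd83 and Ctss also stand in the costimulation and processing lists above. Fgd2 was highest in cDC1-like cells and Pkib in plasmacytoid DC-like cells. These are descriptions over classes that share libraries, depth and free RNA.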

How the data were processed

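Single-cell RNA libraries of 4 samples, 2 per genotype, were 10x Genomics 3' v2 libraries read on a HiSeq XTEN, per the labels' protocols. CASAVA 1.8, Cell Ranger, Seurat and the mm10 genome are named in the submitters' processing notes. Other versions and the cell filters were not given in the sources used here. Natural log values were deposited, ln(1 + 10000 × UMIs of a gene / UMIs of the cell). Their exponentials minus 1 add up to 10000 per cell, and 100% of nonzero values were whole multiples of the cell's smallest value (tolerance 0.001), so whole UMIs were recovered. The fewest genes in a cell were 201. The planned genotype comparison could not be run, because cells are not paired with samples.

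Cells were clustered with scanpy 1.11.5 (2000 variable genes without the 10 members, 30 components, 15 neighbours, Leiden resolution 1.0, seed 1) into 26 clusters, split to 96, and named from 22 marker lists into 21 classes. The splitting, which was not planned, and the naming thresholds (score at least 1.0, gap at least 0.5, at least 20 cells) were set after clusters had been viewed with their Cd74 and H2-Aa levels; clusters led by cycling genes stayed unnamed. No doublet caller was run and no cell was removed. Members, gene lists and markers were chosen with earlier results of these data known. All members were named, with up to 6 genes of highest class level per list and the 8 genes most like the class II profile; values of 1 list gene are not reported here. The pair comparison was tested on simulated counts. Intervals are exact at 95% and cover counting error only. Alternatives were other Leiden resolutions, clustering with the members, UMI-weighted cells, deeper cells, other pseudocounts and filters, centring, subtraction of the lowest class and leaving out each barcode set; the left-out shared barcodes and the marker sum without Ly6d were added after seeing the data. Python 3.11.15, numpy 2.4.6, scipy 1.17.1 and pandas 2.3.3 were used.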

Additional observations from a re-analysis of the deposited data

How the results depend on the processing

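No paired analysis was possible because cells are not paired with samples, so no genotype was tested. Of 588 recomputed values that answer a comparison 550 stayed within their spread or within 1.5 times, 38 moved and 0 reversed, and of 1283 values of single members or genes 1215 stayed, 68 moved and 0 reversed. Reversed means that a called value changed sign. The uncalled sinusoidal endothelial-like median against hepatocyte-like cells did change sign. A median stayed if it shifted by less than its standard deviation over sets, so a widely spread one could shift far and still count. Counts of 0 that stayed 0 are included, so the tally alone is no measure of robustness. Members called lower in Kupffer cell-like than in tumour macrophage-like cells, 0 as reported, became 1 at Leiden resolution 0.5 and 4 at resolution 2.0, with UMI-weighted cells and with cells of at least 500 genes, and ranged from 0 to 6 with each barcode set left out. The mature DC-like median against cDC2-like cells was -0.43 at resolution 2.0, and 3 to 5 members were called lower with a set left out. The plasmacytoid DC-like median was -2.26 with the median of all genes set to 0. Members called lower in cDC2-like than in B cell-like cells, 1 as reported, became 2 at resolution 2.0, with the members in the clustering, with UMI weights and with a pseudocount of 1 CPM, 0 with at least 500 genes, and 1 to 2 with a set left out. In non-classical against classical monocyte-like cells the 6 called members became 2 at both other resolutions, 3 with UMI weights and 0 with the members in the clustering (median -0.96). The sinusoidal endothelial-like median against hepatocyte-like cells, -0.37 as reported, was 0.21 at resolution 0.5, 1.06 with UMI weights and -1.11 after centring. The sinusoidal median against vascular endothelial-like cells was 1.44 and 1.38 at resolutions 0.5 and 2.0, 1.86 with the members in the clustering, 1.24 with UMI weights and 2.03 with the lowest class subtracted, with 4, 4, 5, 2 and 3 members called higher. Thinned to 1000 UMIs, the share of cells with a class II UMI was 92.0% in Kupffer cell-like, 44.9% in hepatocyte-like, 51.9% in neutrophil-like and 41.6% in T cell-like cells. At both other resolutions 5 of the 8 most alike genes were shared. The cause of these moves was not tested. The highest class of a member stayed the same in 108 of 110 values, the exceptions being H2-DMb1 without set 1 and without set 4, where cDC1-like cells were highest. Ciita, with 1293 UMIs in all cells, is limited by depth.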

Other observations

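Among the cells that stayed unnamed were clusters with dendritic-like levels of class II. A cluster of 73 cells, 67 of them in barcode set 3, had 9658 CPM of H2-Aa, and a cluster of 84 cells, 60 of them in set 3, had 7509 CPM. Both were led by the interferon-induced genes Cxcl9, Gbp2 and Cxcl10. A further unnamed cluster, with 31 cells of which 29 were in set 2, had 10800 CPM of H2-Aa. A monocyte-like cluster of 99 cells, 76 of them in set 4, had 3382 CPM of H2-Aa together with 217 CPM of H2-DMb2 and 1942 CPM of summed B cell markers (1269 without Ly6d). These clusters were picked out after their values had been seen.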
